A study of Mus musculus with 12 samples.

Results

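The 9 genes described here are the D cyclins Ccnd1, Ccnd2 and Ccnd3, their partner kinases Cdk4 and Cdk6, and 4 inhibitors of those kinases, Cdkn1a, Cdkn1b, Cdkn2a and Cdkn2c. They were chosen by name, 9 of 21951 protein-coding genes and of 55450 genes in the annotation, and the first 5 are called G1 drivers below. H3K4me3, the trimethylation of histone H3 at lysine 4 that marks active and poised promoters, was mapped by CUT&Tag in the medial, lateral and caudal ganglionic eminences (MGE, LGE and CGE) and the cortex (CTX) of wild-type C57BL/6J mouse embryos. CUT&Tag steers a transposase to the mark with an antibody, and the DNA it cuts out is sequenced. The age given for these tissues in the study's methods is E12.5, while the sample protocol names both E12.5 and E14.5 embryos. No treatment is named for any of the 4 groups, embryos were pooled, and by their labels the groups differ in the tissue dissected. The 2 replicates of each region, 12 libraries in all, were merged by the authors before they called broad peaks, so each region is represented by 1 list. No difference between regions could be set against replicate error, no test was possible, and every comparison below is a description of 4 lists. How many reads lie behind a peak is not given in the lists. The study's methods state a greater sequencing depth for both CGE and both LGE replicates than for the MGE ones. Both CGE replicates were also deeper than the LGE ones. Depth and region therefore cannot be told apart in these comparisons. For CTX, replicate 2 was deeper than both MGE replicates, both LGE replicates and CGE replicate 2, and the depth of replicate 1 is misprinted. In bulk tissue, more cells with the mark and more mark per cell cannot be told apart.

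Cells pass from G1 into S phase when D cyclins bind CDK4 or CDK6 and the complex phosphorylates the retinoblastoma protein, which releases E2F factors. INK4 proteins, encoded among others by Cdkn2a and Cdkn2c, bind CDK4 and CDK6 directly, whereas the CIP/KIP proteins p21 (Cdkn1a) and p27 (Cdkn1b) bind cyclin-kinase complexes. In the embryonic forebrain cyclin D1 and cyclin D2 are known from dividing progenitors of the ventricular and subventricular zones, and p27 from cells that leave the cycle.

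Peaks were more numerous and narrower in MGE (25339, median width 563 bp) and CTX (21442, 701 bp) than in LGE (17284, 1168 bp) and CGE (17752, 1240 bp). Where 4 values follow each other below, they stand in the order MGE, LGE, CGE and CTX. Of the tissue markers, the progenitor genes Nes and Sox2 lay between the 91.6th and the 98.4th percentile of covered bases in every list. Of 3 MGE genes Nkx2-1 and Lhx8 had a peak in MGE, LGE and CGE and none in CTX. The third, Lhx6, had 3057, 3711, 5920 and 451 covered bases. The LGE genes Ebf1 and Isl1 had 4775 and 4284 bases in CGE against 2425 and 2223 in LGE, and Gsx2 had 2209 and 2189. Of the CGE genes Nr2f2 and Prox1 were highest in CGE, at 12460 and 2604 bases, and Sp8 in LGE, at 3649. The subpallial genes Dlx1, Dlx2 and Gad1 had 1307, 1128 and 129 bases in CTX and 1663 to 5554 in the other lists. Labels and markers did not match throughout. Of 4 cortical genes Emx1, Neurod2 and Tbr1 were covered over 2323 to 3453 bases in LGE and CGE, against 1187 to 2969 in CTX and 138 to 495 in MGE, and Neurod6 over 242 to 1132 bases in all lists. Of the neuronal markers Dcx had no peak in CTX, and Tubb3 lay between the 93.3rd and the 97.9th percentile in all lists. Of the endothelial, microglial and blood markers Cdh5, Csf1r, Aif1 and Hbb-bt had 0 covered bases in all lists, Pecam1 had 124 in MGE only and Hba-a1 0 to 534. The mesenchymal markers Col1a1 and Pdgfra had 0 to 573 and 545 to 3833 bases, the highest value being Pdgfra in CGE. The part of such cells in the results below was not tested.

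A gene was measured within 5 kb either side of every start that GENCODE M21 annotates for it on GRCm38. Covered bases are the bases of those windows that lie under peaks, and the percentile ranks a gene's covered bases among all protein-coding genes of the same list. All 9 genes had a peak in every list. Of all protein-coding genes 65.0%, 64.2%, 64.6% and 63.8% had one, and 61.3% had one in all 4 lists. When only the 17284 peaks of highest fold were taken from each list, Ccnd1 and Cdk6 had none in MGE. With that background, the presence of a peak says little about these genes, and the values that separate them are widths, positions and ranks.

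The promoters that carried the mark can be shown beside those of the same genes that did not. RefSeq promoters were at hand for 7 of the 9 genes, 11 promoters in all, on GRCm38.p6. Of these, 3 genes, Ccnd3, Cdkn1a and Cdkn2a, have a RefSeq start under a peak in all 4 lists and another under a peak in none. The bases upstream of both starts are given in transcription direction, 5′ to 3′, without any base annotated as untranslated, and the capitals mark CpG, the dinucleotide that is dense in CpG islands.
Ccnd3, start without a peak, chr17:47504801-47505050, plus strand: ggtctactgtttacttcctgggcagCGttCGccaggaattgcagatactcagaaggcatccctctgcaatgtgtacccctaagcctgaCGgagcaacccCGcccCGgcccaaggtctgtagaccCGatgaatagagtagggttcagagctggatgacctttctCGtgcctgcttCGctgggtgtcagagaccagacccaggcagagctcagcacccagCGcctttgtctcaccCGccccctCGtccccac
Ccnd3, start with a peak, chr17:47593217-47593466, plus strand: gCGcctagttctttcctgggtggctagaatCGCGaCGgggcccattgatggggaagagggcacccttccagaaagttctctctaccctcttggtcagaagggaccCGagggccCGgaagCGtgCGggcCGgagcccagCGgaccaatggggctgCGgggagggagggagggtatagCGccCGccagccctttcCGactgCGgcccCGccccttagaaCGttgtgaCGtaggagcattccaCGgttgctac
Cdkn1a, start without a peak, chr17:29090729-29090978, plus strand: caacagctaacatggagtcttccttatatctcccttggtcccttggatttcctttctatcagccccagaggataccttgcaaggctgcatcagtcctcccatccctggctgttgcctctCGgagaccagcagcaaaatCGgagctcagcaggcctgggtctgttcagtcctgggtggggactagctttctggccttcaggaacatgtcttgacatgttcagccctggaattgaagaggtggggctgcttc
Cdkn1a, start with a peak, chr17:29093519-29093768, plus strand: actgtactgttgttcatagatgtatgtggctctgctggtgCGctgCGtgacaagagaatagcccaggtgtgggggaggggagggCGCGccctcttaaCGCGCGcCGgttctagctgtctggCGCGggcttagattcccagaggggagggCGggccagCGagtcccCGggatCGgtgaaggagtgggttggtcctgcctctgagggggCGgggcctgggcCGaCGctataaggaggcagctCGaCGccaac
Cdkn2a, start without a peak, chr4:89282193-89282442, minus strand: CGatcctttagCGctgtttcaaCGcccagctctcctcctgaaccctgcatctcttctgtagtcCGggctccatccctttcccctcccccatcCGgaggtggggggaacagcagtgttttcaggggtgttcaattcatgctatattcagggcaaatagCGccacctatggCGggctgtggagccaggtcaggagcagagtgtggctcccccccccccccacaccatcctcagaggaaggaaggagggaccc
Cdkn2a, start with a peak, chr4:89294654-89294869, minus strand: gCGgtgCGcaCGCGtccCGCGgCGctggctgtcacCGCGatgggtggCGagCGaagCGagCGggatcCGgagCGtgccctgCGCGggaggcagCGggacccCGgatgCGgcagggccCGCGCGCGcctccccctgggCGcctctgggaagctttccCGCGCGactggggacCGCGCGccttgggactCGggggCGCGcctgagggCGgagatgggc

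Over the 250 bases upstream of each start, Ccnd3 had 11 CpG at the start without a peak and 19 at the one with a peak. Cdkn1a had 2 and 19. Cdkn2a had 7 and 40, of which 35 lie in the 216 bases printed. The marked promoter was the one richer in CpG in all 3 genes, a pattern shared with most of the genome: of 822 genes with a RefSeq start of each kind, 785 (95.5%) had more CpG at the marked one. The median CpG count was 18 for the 11760 promoters whose start was under a peak in all 4 lists and 3 for the 18756 under a peak in none. GGGCGG, the letters bound by Sp1, was held on either strand by 7 of the 11 promoters, against 32.7% of all 32817. The 2 sets are unlike: most of the 11 were marked in all 4 lists, and 18756 of the 32817 in none. Among the 7 is the Cdkn2c start at 109666756, whose 250 upstream bases are all annotated as untranslated. CCAAT was held by 2, those of Ccnd3 and Cdkn1b, against 33.8%, and TATAAA by 1, of Cdk6, against 12.4%. These matches are descriptions and not sites shown to be bound.

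Ccnd1 encodes cyclin D1. It spans chr7:144929931-144939925, minus strand, with annotated starts at 144939925, 144939869 and 144938197. Its covered bases were 2391, 2472, 2249 and 2515 in MGE, LGE, CGE and CTX, so that the 4 lists differed by a factor of 1.12 at most. Its percentiles were 96.7, 92.6, 87.8 and 97.1. The shape of the domain differed more than its size. In LGE and CGE a single peak of 2214 and 2249 bp joined the starts at 144939869 and 144938197. In MGE the same stretch held peaks of 1349 and 613 bp and in CTX peaks of 1280 and 808 bp, with a gap between them. The most upstream start lay inside the peak in MGE and CTX and 23 and 13 bp outside it in LGE and CGE. A further peak lay upstream of the gene, at a distance of 1398, 1382 and 1400 bp in MGE, LGE and CTX. It was 429, 258 and 427 bp wide, and CGE had none there.

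Ccnd2 encodes cyclin D2 and spans chr6:127125162-127152193, minus strand. Covered bases were 2218, 1998, 1998 and 1997 in MGE, LGE, CGE and CTX, with percentiles of 95.6, 85.9, 83.2 and 93.1. The values in LGE, CGE and CTX were within 1 base of each other but are not made up alike. The CTX value includes part of a second peak, described below. Of its 7 annotated starts, the 4 between 127150961 and 127151060 were under 1 peak in every list, of 2064, 1998, 1998 and 1853 bp in the order of the lists. Starts at 127152193, 127146688 and 127139152 were under none. The LGE and CGE peaks had identical ends, 127149129 and 127151126, as 153 peaks of these lists did. A start of 9330179D12Rik, an antisense RNA, lies under the same peak, and a peak carries no strand, so the mark cannot be divided between the genes. MGE and CTX also held a 501-bp and a 567-bp peak 4847 and 4857 bp beyond the start at 127139152, inside the gene. LGE and CGE had peaks of 355 and 398 bp at the same place, 5018 and 5032 bp away and so just outside the window. The MGE and CTX totals thus include part of a peak that the window's edge keeps out in LGE and CGE.

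**Figure D1:**
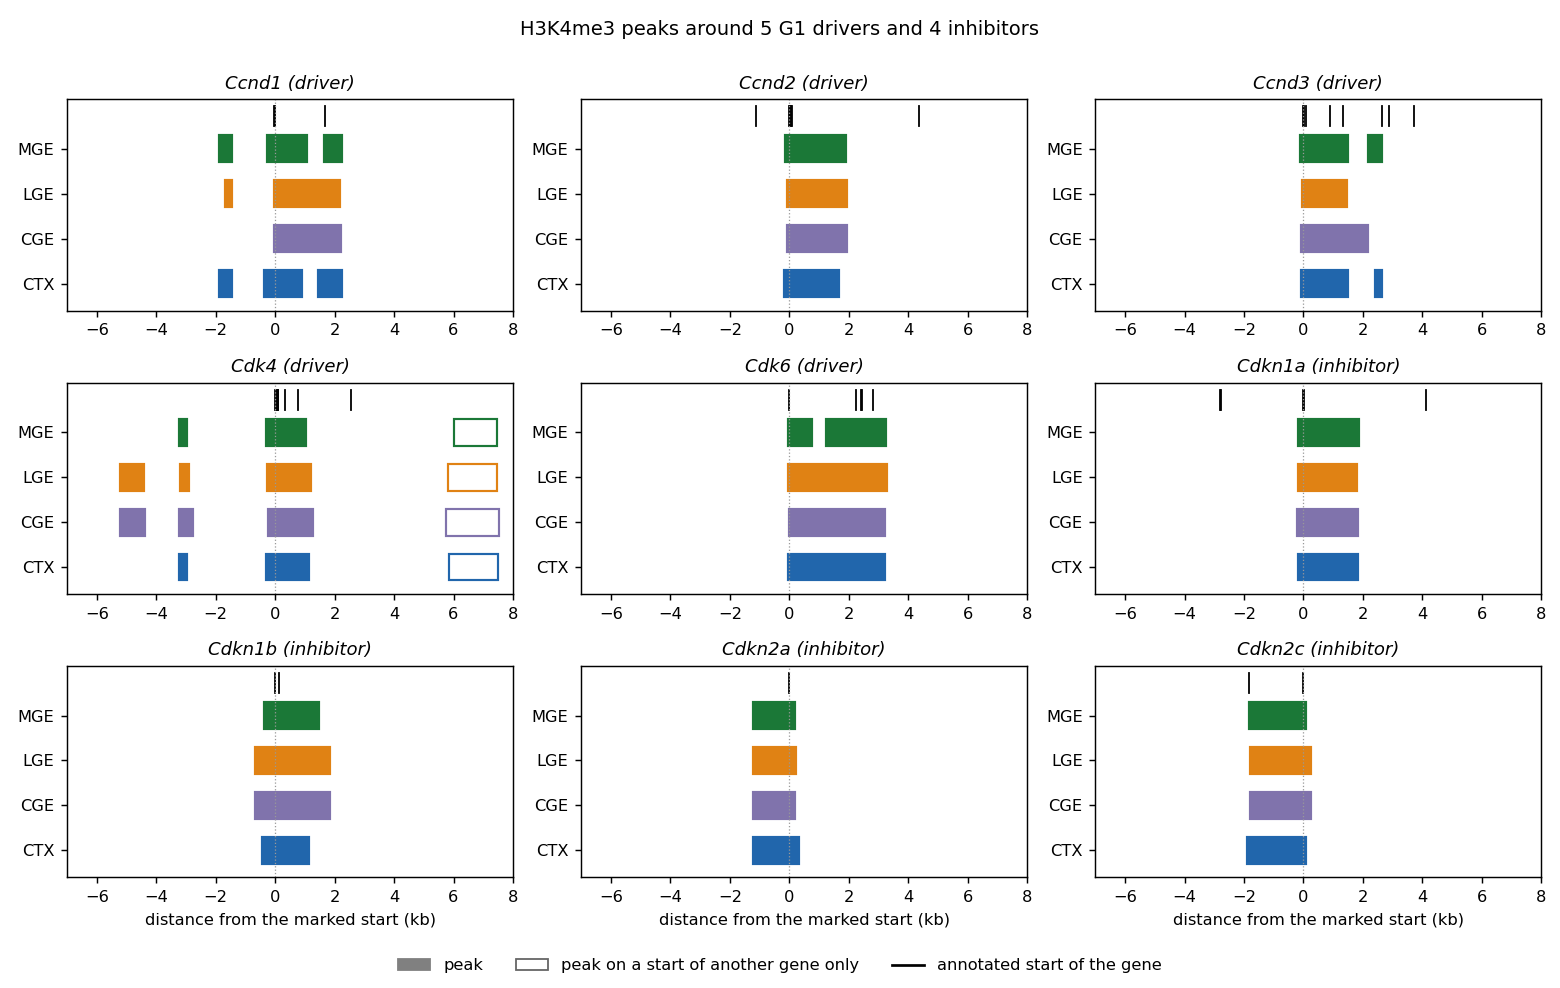
H3K4me3 peaks within 5 kb of the starts of each gene, in the 4 lists, by distance in kb from the most upstream start that was under a peak in the most lists (0, dotted line), in transcription direction. Filled bars are peaks, open bars peaks on a start of another gene only, and black ticks annotated starts; peaks and starts beyond -7 or 8 kb, such as the upstream starts of Ccnd3, are not drawn. Ccnd1 and Cdk6 have split peaks in MGE and 1 joined peak in CGE, and the Cdkn2a peak lies mostly upstream of its start.

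Ccnd3 encodes cyclin D3, which is on the plus strand of chromosome 17 and has 19 distinct annotated starts. The 11 most upstream, between 47505051 and 47505241, were under no peak in any list. The next cluster begins 88195 bp downstream, and its 5 starts between 47593436 and 47594756 were under a peak in every list, 1601, 1511, 2251 and 1590 bp wide in MGE, LGE, CGE and CTX. The nearest peak to the upstream starts was that on the promoter of Taf8, a TFIID subunit gene, at 2650, 2592, 2530 and 2617 bp. Total covered bases were 2553, 2354, 3165 and 2381 in MGE, LGE, CGE and CTX, with percentiles of 97.5, 91.4, 95.7 and 96.4. CGE was the highest, and its peak reached 47595607, beyond the ends of the others. MGE and CTX had a separate peak further on, of 487 and 253 bp, and LGE and CGE had no separate peak there. The MGE one began at 47595599, so the end of the CGE peak reached into the same stretch. The Taf8 peak, 465 to 914 bp wide, is part of those totals. Leaving out peaks that touch a start of another gene only, Ccnd3 kept 2088, 1511, 2251 and 1843 bases, at percentiles of 95.8, 75.0, 89.9 and 92.9.

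Cdk4, which encodes a kinase partner of all D cyclins, had the most covered bases of the 9 genes in every list, 3030, 4056, 4386 and 3353 in MGE, LGE, CGE and CTX. These placed it between the 98.8th and the 99.1st percentile throughout. Several peaks made up the total. The peak on 8 of the 9 Cdk4 starts, from 127063534 on chromosome 10, was 1317, 1475, 1520 and 1437 bp in MGE, LGE, CGE and CTX. A second, 1444 to 1763 bp wide, lay on starts of Tspan31 and of the noncoding A730063M14Rik. Smaller peaks of 269 to 467 bp lay 2763 to 2976 bp upstream of Cdk4, on the side of March9, and LGE and CGE had another of 816 and 856 bp beyond them. Without peaks on other genes' starts only, 1586, 2382, 2623 and 1720 bases remained, at percentiles of 89.1, 93.2, 93.6 and 91.2. These still count the peaks on the side of March9, which touch no annotated start. The March9 start is 3350 bp from the nearest Cdk4 start. Within 2 kb of its starts Cdk4 lay between the 71.8th and the 85.0th percentile. The authors' −log10 q of the Cdk4 peak, a measure that grows with read number, ranked between the 98.2nd and the 99.7th percentile of its list, although its width ranked between the 68.2nd and the 88.5th. The −log10 q of the other 8 main peaks ranked at the 84.2nd percentile or below.

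The bases before the first Cdk4 start hold CACGTG, the E-box letters bound by Myc and related factors, which reads the same on both strands. They are printed with CACGTG in capitals, from chr10:127063285-127063533 on the plus strand of GRCm38.p6, because of their number.
Cdk4, start with a peak: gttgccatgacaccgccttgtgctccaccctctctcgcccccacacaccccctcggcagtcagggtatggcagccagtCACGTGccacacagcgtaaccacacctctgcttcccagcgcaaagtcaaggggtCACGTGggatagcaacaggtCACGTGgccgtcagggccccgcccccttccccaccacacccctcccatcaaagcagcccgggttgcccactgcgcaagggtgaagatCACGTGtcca

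There are 4 copies. At least 1 was held by 6.02% of all promoters, Cdk6 among them, and 4 or more by 7 of 32817, or 0.0213%. This count was made after the sequence was seen. Binding of any factor was not measured in these lists.

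Cdk6 encodes the other partner kinase and had 2849, 3334, 3250 and 3278 covered bases, at percentiles of 98.4, 97.2, 96.0 and 99.0. In LGE, CGE and CTX all of them lay in 1 domain over 5 starts, from 3341485 to 3344312 on chromosome 5. In MGE the domain was split into peaks of 817 and 2032 bp. Its main peak was the widest of the 9 genes in LGE, CGE and CTX, and its width lay between the 98.1st and the 99.9th percentile of the list in all 4. It was also shallow. The authors' fold enrichment averaged over the main peak was 3.70, 3.28, 3.79 and 3.73 in MGE, LGE, CGE and CTX, at percentiles of 30.7, 9.48, 22.7 and 20.5. The remaining start, at 3470949, was 72754 to 72792 bp from the nearest peak in LGE, CGE and CTX and 8903 bp in MGE. A start of the antisense gene Gm17590 falls inside the window.

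Cdkn1a encodes p21, a p53 target that inhibits cyclin-kinase complexes. Its covered bases were 2056, 1980, 2043 and 2019 in MGE, LGE, CGE and CTX, and its percentile was 94.3, 85.5, 84.4 and 93.3. All of them lay in 1 peak per list over the starts at 29093769 and 29093781 on chromosome 17. The starts at 29090976 and 29090979 were 2566 to 2614 bp from that peak, and the one at 29097900 was 2255 to 2336 bp from it. The promoter with 2 CpG printed above is that of 29090979. The marked promoter holds 19. A start of AC167363.2, a transcript on the other strand, lies under the same peak.

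Cdkn1b, which encodes p27, had the largest spread between lists of the 9 genes. Its single peak, over both starts at 134920401 and 134920513 on chromosome 6, was 1829, 2520, 2503 and 1591 bp in MGE, LGE, CGE and CTX. LGE and CGE were the wide lists here and CTX the narrow one, with a factor of 1.58 between LGE and CTX. The upstream edge was at base 134919728 in both LGE and CGE. As percentiles the 4 values were 91.7, 93.0, 91.0 and 86.4, so that the spread was small once each list was ranked on its own.

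Cdkn2a makes different proteins from different promoters, p19Arf from the upstream one and the INK4 inhibitor p16Ink4a from the other. Its covered bases were the fewest of the 9 genes in every list, 1396, 1440, 1405 and 1516 in MGE, LGE, CGE and CTX, with percentiles of 82.0, 69.4, 63.6 and 84.3. One peak per list lay on the upstream start at 89294653 on the minus strand of chromosome 4. The start at 89282192, that of p16Ink4a, was under no peak, and the nearest was 12272, 6677, 5253 and 12152 bp away. Enrichment below the authors' threshold would not be listed, so this is the absence of a peak and not of the mark. Between 79.6% and 86.4% of the peak lay upstream of the start. Its upstream edge was base 89295859 in all 4 lists, as at 13 peaks of the genome in all, while the other edge ranged from 89294344 to 89294464. The authors' −log10 q of this peak was 2.19, 20.3, 36.4 and 3.02 in MGE, LGE, CGE and CTX, at percentiles of 29.4, 36.6, 37.0 and 25.5, the lowest of the 9 main peaks in every list.

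Cdkn2c encodes the INK4 inhibitor p18. It had 1 peak per list, of 1911, 2048, 2061 and 1997 bp in MGE, LGE, CGE and CTX, at percentiles of 92.9, 86.9, 84.8 and 93.1. The peak reached from the start at 109665372 on chromosome 4 to that at 109667189 on the minus strand. The second was inside the peak in MGE and CTX and 12 bp outside it in LGE and CGE. The lists thus differed by a few bases at this edge, and whether the start counts as marked turns on them.

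**Figure D2:**
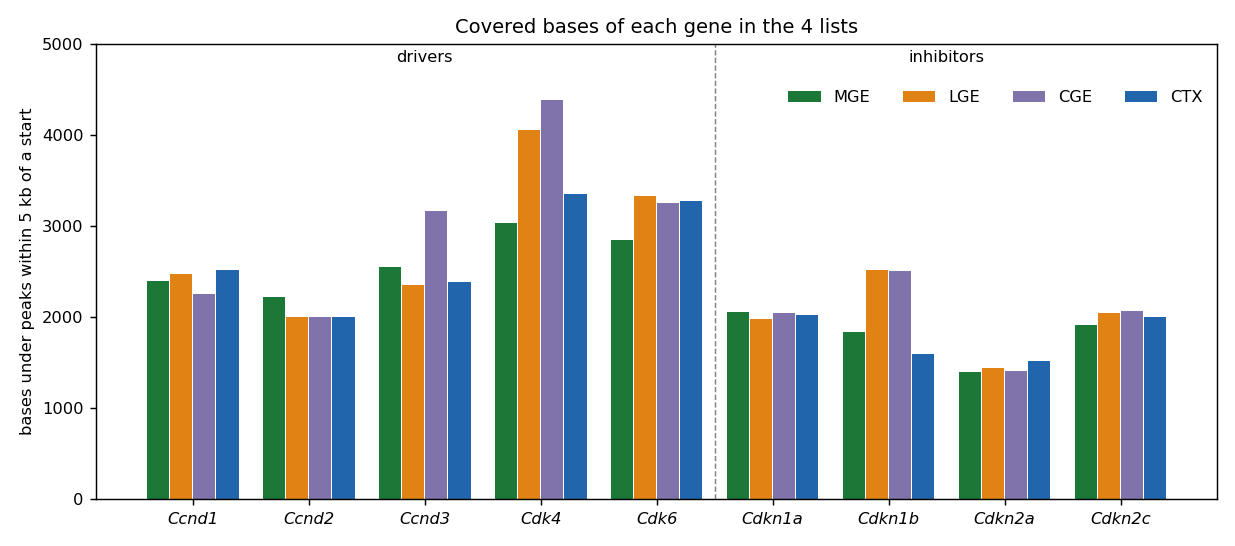
Bases under H3K4me3 peaks within 5 kb of a start, for the 5 drivers (left of the dashed line) and the 4 inhibitors, with 1 bar per list. Cdk4 is highest in every list, from 3030 to 4386 bases, and Cdkn2a lowest, from 1396 to 1516.

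Not all annotated starts of the 9 genes carried a peak. Of their 55 distinct starts, 33 were under a peak in MGE and also in CTX, and 30 in LGE and also in CGE. Over all protein-coding genes the share was 43.9%, 46.3%, 47.2% and 43.9% in MGE, LGE, CGE and CTX. Ccnd2, Ccnd3, Cdk4, Cdk6, Cdkn1a and Cdkn2a had some but not all starts under a peak in each of the 4 lists, 6 of 9 genes against 48.3% of genes with 2 or more starts. Neighbouring starts of a gene lie under the same peak and are not independent.

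The main peak of a gene, the widest that touched one of its starts, was wide and of modest fold in most of the 9. Its width lay between the 88.3rd and the 98.3rd percentile of all peaks in MGE, the 68.5th and the 98.9th in LGE, the 61.6th and the 98.3rd in CGE, and the 83.4th and the 99.9th in CTX. Its fold was below the median of the list for 6, 7, 6 and 7 of the 9 genes. Among all protein-coding genes with a main peak that share was 16.9%, 38.0%, 36.0% and 23.0% in MGE, LGE, CGE and CTX. Fold is averaged over a peak and moved with width: among main peaks at least as wide as the narrowest of the 9, the share was 29.7%, 64.7%, 52.0% and 38.6%. The 9 genes in LGE and CGE were near these shares, and in MGE and CTX above them. The main peak lay mostly upstream of its most upstream covered start in 2 of 9 genes in MGE, LGE and CGE and in 1 in CTX, against 18.9%, 15.8%, 15.4% and 18.6% of genes. Cdkn2a was in that count in all 4 lists, Cdk6 joined it in MGE at 50.2%, and Cdkn2c in LGE and CGE because of the start 12 bp beyond its peak.

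Drivers were more covered than inhibitors by this measure. The median percentile of drivers and inhibitors was 97.5 and 92.3 in MGE and 97.1 and 89.8 in CTX, the lists of narrower peaks. It was 92.6 and 86.2 in LGE and 95.7 and 84.6 in CGE. The difference was 5.19, 6.44, 11.1 and 7.35 points in MGE, LGE, CGE and CTX. Cdkn2a counts among the inhibitors here through the peak on its p19Arf start, as its p16Ink4a start was under no peak. Of 20 driver and inhibitor pairs the driver was higher in 20, 16, 16 and 18. Of the 10 pairs in which it was not, 7 had Ccnd2 as the driver, 1 of them a tie with Cdkn2c in CTX, and the other 3 set Ccnd1 or Ccnd3 against Cdkn1b. Ccnd3, Cdk4 and Cdk6 were the only members at or above the 90th percentile in all 4 lists, as 5.69% of protein-coding genes were. Without peaks on another gene's start only, Cdk6 alone stayed there. Ccnd3 was then at 75.0 in LGE and 89.9 in CGE, and Cdk4 at 89.1 in MGE.

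This difference depended on the measure. Covered bases are counted around every start and include peaks of neighbouring genes, and drivers have 44 of the 55 starts. The part of either in the difference was not tested. Within 2 kb of the starts the difference was 2.07, -0.29, 3.21 and 1.44 points in MGE, LGE, CGE and CTX. Without peaks on another gene's start only it was 2.87, 4.82, 2.94 and 2.95. Taking only the width of the widest peak on a start, a measure added after the values were seen, it was -3.56, -0.223, 2.83 and -2.58 in MGE, LGE, CGE and CTX, so that inhibitors were ahead in 3 of 4 lists. Cdkn1a, Cdkn1b and Cdkn2c each have 1 wide peak per list, whereas the peaks of Ccnd1 are split in MGE and CTX.

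**Figure D3:**
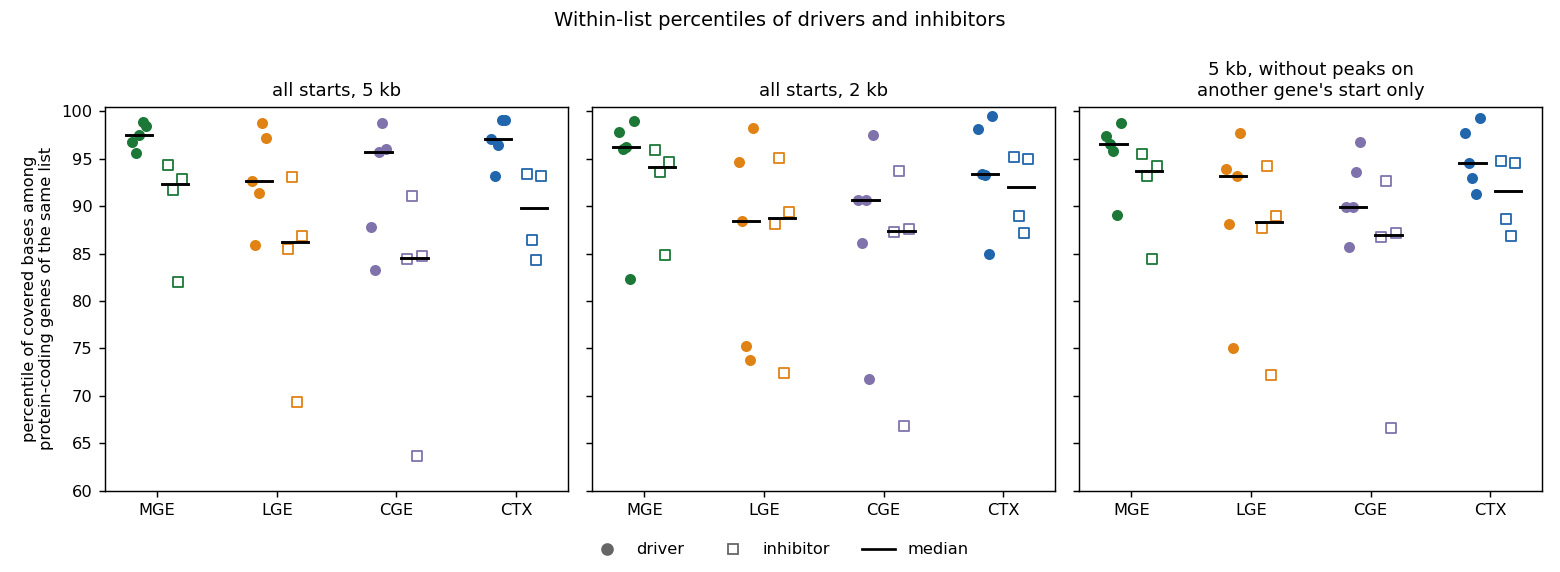
Percentile of covered bases among all protein-coding genes of the same list for drivers (filled circles) and inhibitors (open squares), with their medians as bars, by 3 ways of counting; the axis starts at 60. The driver median is 5.19 to 11.1 points above that of the inhibitors at left and between -0.29 and 3.21 points with windows of 2 kb.

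Between MGE and the lists of wider peaks, LGE and CGE, most of the 9 genes differed less in covered bases than the median gene. Between MGE and CTX they did not, with a median ratio of 1.04 (CTX over MGE) for the 9 and 1.02 for all genes. From MGE to CGE the median ratio of covered bases was 1.08 for the 9 genes and 1.40 for all genes marked in both lists, and 8 of the 9 were below 1.40. From MGE to LGE it was 1.03 against 1.30, with 7 of 9 below. Genes that are already well covered in MGE gained less. Among the 3705 genes with 1396 to 3030 covered bases in MGE, the range of the 9, the CGE ratio had a median of 1.25 and quartiles of 1.13 and 1.44, and 7 of the 9 were below that median. Ccnd2 was lowest at 0.901, followed by Ccnd1 at 0.941 and Cdkn1a at 0.994. The MGE total of Ccnd2 includes part of a peak that the window's edge keeps out in CGE. The peak on its starts was 2064 bp in MGE and 1998 bp in CGE. Cdk4 at 1.45 and Cdkn1b at 1.37 were the exceptions. The Cdk4 totals include peaks that touch none of its starts. The peak on its starts was 1317 bp in MGE and 1520 bp in CGE.

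The most covered list was CGE for 76.7% of genes marked in all 4, LGE for 16.1%, CTX for 3.54% and MGE for 2.45%. Of the 9 genes it was CGE for Ccnd3, Cdk4 and Cdkn2c, LGE for Cdk6 and Cdkn1b, CTX for Ccnd1 and Cdkn2a, and MGE for Ccnd2 and Cdkn1a. Each list thus led for 2 or 3 of them, and in Cdkn1a and Cdkn2c the highest list exceeded the lowest by a factor of 1.04 and 1.08. All 9 had a lower percentile in CGE than in MGE, by 0.105 to 18.3 points, as did 59.1% of the genes marked in both lists. A percentile lower in CGE than in MGE by at least 10 points was found for Ccnd2, by 12.4, and Cdkn2a, by 18.3, as for 11.1% of protein-coding genes. Cdkn2a was also lower in LGE than in MGE by 12.6 points, as were 9.81% of genes. It was higher in CTX than in LGE by 14.9 points, as were 9.09%, and higher in CTX than in CGE by 20.7 points, as were 10.7%. These are differences of rank. The covered bases of Cdkn2a were 1396, 1440, 1405 and 1516, no fewer in LGE and CGE than in MGE. The fold of its main peak ranked higher in LGE and CGE, at percentiles of 33.8, 50.7, 51.8 and 26.4 in the order of the lists. No other member passed 10 points in any of the 6 pairs of lists. These are 1 or 2 of 9 genes each, and which genes passed depended on the window and on the peaks taken. The Ccnd2 difference was 9.89 points with windows of 2 kb and 9.33 at the 5′ end of the gene alone. None of the Cdkn2a differences reached 10 points with windows of 10 kb, where the largest was 9.65. Ccnd3, in turn, was lower in LGE than in MGE by 20.8 points without peaks on another gene's start only, and by slightly more with windows of 2 kb. From MGE to CGE, Cdk4 was lower by 10.5 points with windows of 2 kb. With windows of 10 kb Ccnd1 and Cdkn1a were lower by 12.5 and 12.4 points. With only the 17284 peaks of highest fold, Ccnd1 and Cdk6 were lower in MGE than in every other list, by 59.4 to 79.8 points.

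**Figure D4:**
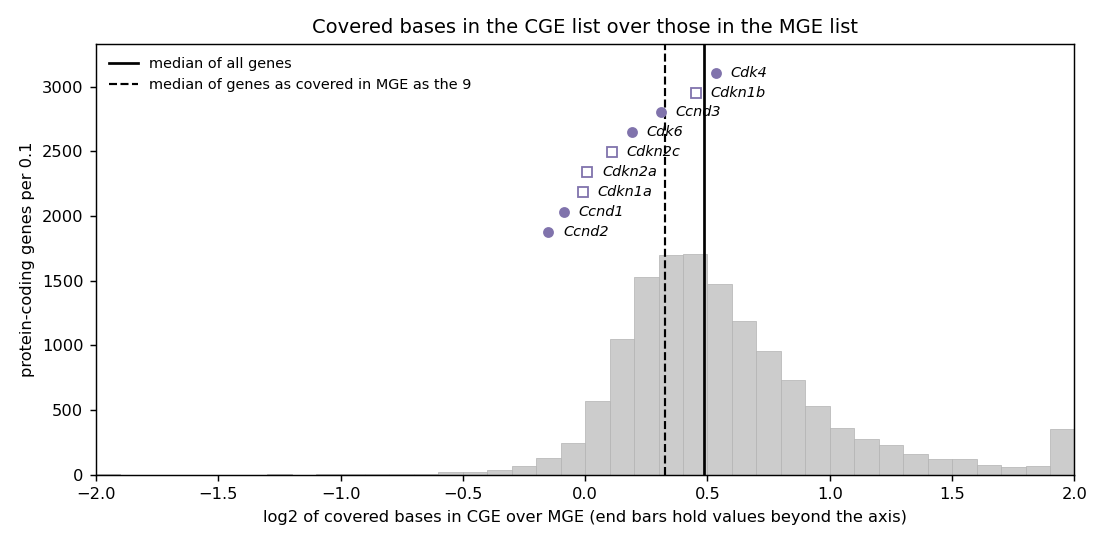
Histogram of the log2 ratio of covered bases in CGE over MGE for protein-coding genes marked in both lists, in steps of 0.1, with the 9 genes above it (circles drivers, squares inhibitors) at heights that only separate their names. The solid line is the median of all genes, a ratio of 1.40, and the dashed line that of genes covered in MGE within the range of the 9, a ratio of 1.25; 7 of the 9 lie left of the dashed line.

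Genes with the most similar pattern were sought for the cyclins of forebrain progenitors, by the Euclidean distance of the 4 percentiles over all protein-coding genes. Ccnd1 was nearest to Nog, at a distance of 1.45, Irf2 at 1.87 and Sinhcaf at 2.05. Among the genes nearest to Ccnd2 were Cdkn1a at 1.83 and Ptpn12 at 2.02. The likeness of Ccnd2 to the inhibitor Cdkn1a is one of coverage over 4 lists.

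The other 32 genes of the pathway all had a peak in every list. Their median percentile was 82.1, 82.0, 82.5 and 84.8 in MGE, LGE, CGE and CTX, against 95.6, 91.4, 87.8 and 93.3 for the 9 genes. The genes named here have the highest and the lowest mean percentile of their list. Among the other inhibitors, Cdkn2b, the neighbour of Cdkn2a and an INK4 gene, was at 39.8 to 43.6, and Cdkn2d at 85.1 to 89.4. The INK4 genes therefore spanned the range from Cdkn2c, at 84.8 to 93.1, to Cdkn2b. Of the kinases and cyclins that act after the D cyclins, Cdc25a, a phosphatase that activates them, was at 85.8 to 92.1 and Cdk2 at 55.9 to 61.2. Rb1, the target of CDK4 and CDK6, stood beside the kinases at 97.7 to 99.0, whereas its relative Rbl2 was at 55.4 to 57.3. Tfdp2, a partner of E2F proteins, was at 95.1 to 98.9 and E2f6, a repressor of the family, at 55.7 to 74.3. Among regulators Myc was at 98.0 to 98.6 and Mdm2, which restrains p53, at 61.3 to 78.9. The mitotic cyclins Ccnb1 and Ccnb2 were at 69.6 to 73.7 and 39.5 to 50.5.

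**Figure D5:**
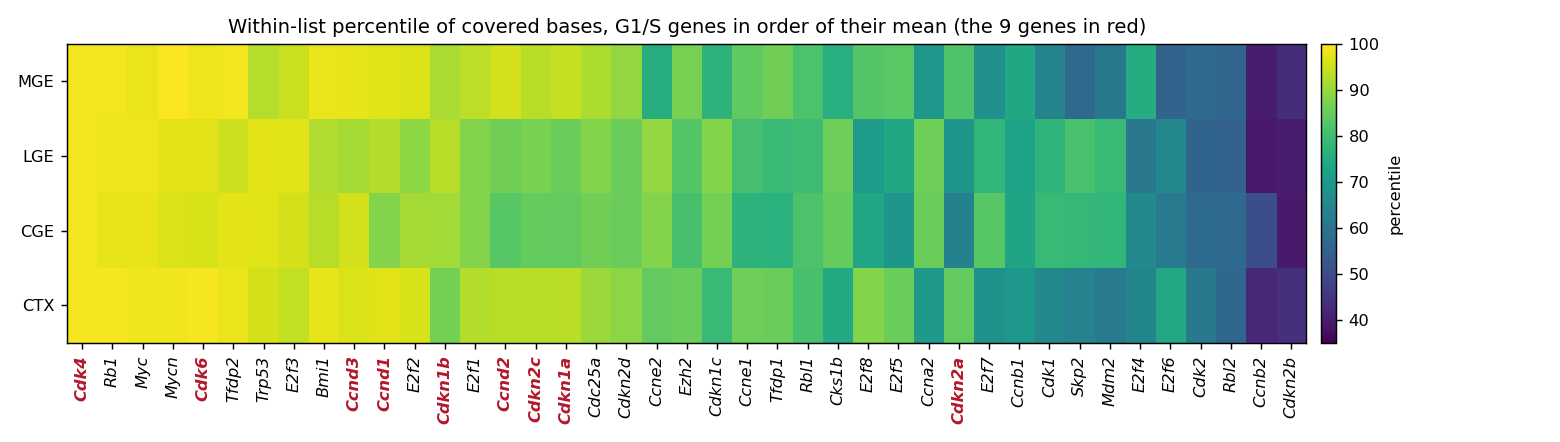
Percentile of covered bases within each list (colour, 35 to 100) for the 9 genes (red names) and the 32 other genes of the pathway, in order of their mean over the 4 lists. Peaks on starts of neighbouring genes are counted. Cdk4 is first, with a mean of 98.9, and Cdkn2a, with 74.8, is the last of the 9.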

How the data were processed

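CUT&Tag libraries of 4 forebrain regions were sequenced, and each label's region and replicate number assigned the 12 libraries to groups. The second number in a title was taken as a repeat run. The authors aligned reads with Bowtie2 to GRCm38/mm10, removed duplicates (Picard), merged the replicates and called broad peaks with MACS. The submitters' processing notes also list SAMtools and deepTools, and the caller's version, threshold and control are not given in the sources used here. The deposited lists give each peak's position (used 1-based), its fold enrichment, a ratio over the caller's background, and the authors' −log10 p and −log10 q. Fold and −log10 q were ranked only within a list, since both move with depth. The study's methods give the depth of each replicate before merging, and the reads left in each merged list are not given in the sources used here.

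Starts came from GENCODE M21. Covered bases, peaks and mid-rank percentiles within 5 kb of every start were obtained with scripts in Python 3.11.15 (numpy 2.4.6, pandas 2.3.3, matplotlib 3.10.9). Tested on simulated lists, the interval code gave the same bases as a direct count in all 200 runs. Named genes were the 9 members, every other pathway gene without a peak in some list, the highest and lowest gene of each pathway list by mean percentile, the 3 genes nearest to Ccnd1 and to Ccnd2, other genes with a start in a member's window, and the markers. Of these named genes, 2 are not reported here. Members, lists and rules were chosen with earlier results of these data known. Main peaks, starts under peaks, peak edges, the ratio among equally covered genes and the CpG counts were added after values had been seen. Promoter sequences were those of the RefSeq table, and a search covered the 250 bases upstream of a start on both strands. TGACGTCA, TTTCGCGC and TTTGGCGC, held by 1.55%, 0.256% and 0.417% of promoters, matched none of the 11. The protocol's wording leaves unclear whether nuclei of the regions were mixed, and they were taken as separate. Reads and single replicates were not analysed here.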

Additional observations from a re-analysis of the deposited data

How the results depend on the processing

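All 9 genes kept a peak under the alternatives tried, except with equal list sizes (the 17284 peaks of highest fold), where Ccnd1 and Cdk6 had none in MGE. The driver minus inhibitor difference, in percentile points and in the order MGE, LGE, CGE and CTX, turned to inhibitors in LGE with windows of 2 kb (2.07, -0.29, 3.21 and 1.44) and 10 kb (2.55, -0.459, 5.72 and 2.89), and in 3 lists for the widest peak on a start (-3.56, -0.223, 2.83 and -2.58). The direction was kept with the 5′ end of the gene only (1.52, 4.79, 3.01 and 1.51), without peaks on other genes' starts only (2.87, 4.82, 2.94 and 2.95), with a −log10 q of at least 2 (4.97, 6.41, 11.0 and 7.20), without Cdkn2a (4.61, 5.75, 10.9 and 3.98) and as percentiles among marked genes (7.98, 10.0, 17.1 and 11.5). With equal list sizes it was 1.79 in MGE, 11.0 in CGE and 5.97 in CTX, and the LGE list is unchanged by construction. The causes of these shifts were not tested. At 5′ ends only, the first start of Ccnd3 has no peak, and its value of 465 to 914 bases is the Taf8 peak. With a threshold of 20 points in place of 10, and windows of 5 kb on the full lists, Cdkn2a between CTX and CGE was the only difference between lists that remained. Of 216 values of covered bases under alternatives, 56 moved. No paired analysis was possible because each list comes from merged replicates, none of which could be left out. Enrichment below the peak caller's threshold is not listed, and the reads behind each merged list are not given in the sources used here.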

Other observations

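Peaks between 5 and 50 kb of a start of the 9 genes, and over 2 kb from the starts of other genes, numbered 26, with 9, 3, 6 and 8 in MGE, LGE, CGE and CTX. They were narrow, from 115 to 1377 bp, and 10 of them had a −log10 q under 2. Ccnd3 held 10, most of them inside the gene between its upstream starts and the marked ones. One of these, 16189 to 16425 bp from the nearest start, was present in all 4 lists and was 462, 715, 734 and 156 bp wide in MGE, LGE, CGE and CTX. Another, at 5865 to 5924 bp, was 287 bp wide in MGE, 374 bp in CGE and 437 bp in CTX and had no counterpart in LGE. Beyond Cdk4 a peak 24556 to 25353 bp from its nearest start was present in all 4 lists, 606, 976, 1377 and 548 bp wide in MGE, LGE, CGE and CTX. The peak nearest to the p16Ink4a start of Cdkn2a was a 275-bp peak in CGE, 5253 bp away, with a fold of 2.78 and a −log10 q of 2.29. Cdkn2c had no such peak in any list.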
